A study of Danio rerio with 8 samples.

Results

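Collagen genes were followed in whole zebrafish larvae after transient LIS1 knockdown and in control larvae. The members are the genes whose zebrafish symbol is col, a number, the letter a and a further number, found by matching the transcript accession of each probe to a RefSeq gene table. Probes could be matched to 22 such genes, with 52 probes, out of 28550 genes and unnamed transcripts in all. Of 43603 probes on the array, 25069 matched a symbol, and whether the others read further collagen genes was not analysed here. The gene table lists 60 collagen symbols, so 38 of them were not analysed here, among them col4a1, col4a2 and all type VI chains.

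The LIS1 morphant group held 4 pools of larvae injected with a LIS1 morpholino, an antisense oligomer that lowers its target for a limited time. They had been chosen for a slight outward phenotype and for seizure behaviour. The control group held 4 pools of wild-type larvae from the same egg pools, and the labels do not say whether these were injected. Each pool contained 10 whole larvae of the WIK background, all aged 4 days post fertilization, and each was hybridised to a 1-colour array of its own. LIS1, encoded by pafah1b1a and pafah1b1b, regulates the microtubule motor dynein.

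Collagens are matrix proteins in which chains wind around each other into a helix rich in glycine and proline. Fibrillar collagens build the cables of bone, skin, tendon and cartilage. FACIT collagens, short for fibril-associated collagens with interrupted helices, sit on the surface of these fibrils. Type IV collagens form sheets in basement membranes, and types VIII and X form short-chain networks. In larval zebrafish the notochord sheath, the cartilages of the head, the skin, the fin folds and the first bones are major sites of collagen synthesis.

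Between 83.8% and 88.8% of spots per array were well above background, and 0 spots were saturated. Array brightness, taken as the 75th percentile of processed signals, was 1599 ± 153 in morphants and 1237 ± 178 in controls (SD, n = 4 each; two-sided exact permutation p = 0.0571). Spike-in probes, which read control RNA added to the sample, had medians that averaged 1960 ± 173 in morphants and 2503 ± 288 in controls (SD, n = 4 each; exact permutation p = 0.0571). With 4 pools against 4, that test allows no p below 0.0286. Taken as slide pairs, all 4 differences of each measure had the same sign, with an exact permutation p of 0.125, the smallest that 4 pairs allow. A morphant and a control array of the same replicate number shared a slide, and slides are numbered here after the replicate. By rank correlation, 6 of the 8 columns of the deposited value table belong to a different replicate of the same group than they are named for, so the replicate numbers are uncertain while the groups are not touched. The brighter pafah1b1a probe changed by 0.07 (limma adjusted p = 0.793) and the dimmer by 0.65 (limma adjusted p = 0.0307), and the 4 pafah1b1b probes by -0.03 to 0.07. The way the morpholino blocks its target is not given in the sources used here, so these transcript levels check neither the knockdown nor the labels.

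Levels below are log2 signals minus the log2 75th percentile of the same array, changes are morphant minus control on that scale, and errors of changes are moderated standard errors. Where a gene had several probes, the brightest stood for it. Adjusted p-values come from limma with Benjamini-Hochberg adjustment over 23400 genes, with a threshold of 0.05.

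Collagen genes moved in both directions in the morphants. Of the 22, 4 rose, 7 fell and 11 did not pass. Among all genes tested, 38.3% passed, 16.4% as higher and 21.9% as lower, so the collagen shares of 18.2% and 31.8% lay near those of the whole array. The median change was -0.11 over the collagen genes and -0.06 over all genes. Levels of the groups did not overlap for 10 collagen genes, where 38% of all genes tested had no overlap. The genes that rose were col9a1b, col9a1a, col28a2a and col5a2a. Those that fell were col11a1b, col5a3a, col5a3b, col19a1, col8a2, col1a1b and col1a1a. All 22 were well above background on all 8 arrays. The split between rises and falls depended on the scaling. It was 4 and 7 in the fit described here, where 3845 and 5118 of all 23400 genes rose and fell. After normexp background correction with 75th percentile scaling it was 2 and 1, where 1387 and 1294 of all genes did. In the deposited value table it was 5 and 5, where 4227 and 4598 of all genes did. When arrays were scaled to the spike-in probes it was 10 and 0, where 12579 and 1069 of all genes did. Spike-in scaling moved the median change of all genes to 0.68. Both it and the 75th percentile subtract a single value per array. The collagen median relative to that of all genes, -0.06, is therefore the same in both by construction. Rises and falls in this account are therefore relative to the other genes of the array.

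**Figure D1:**
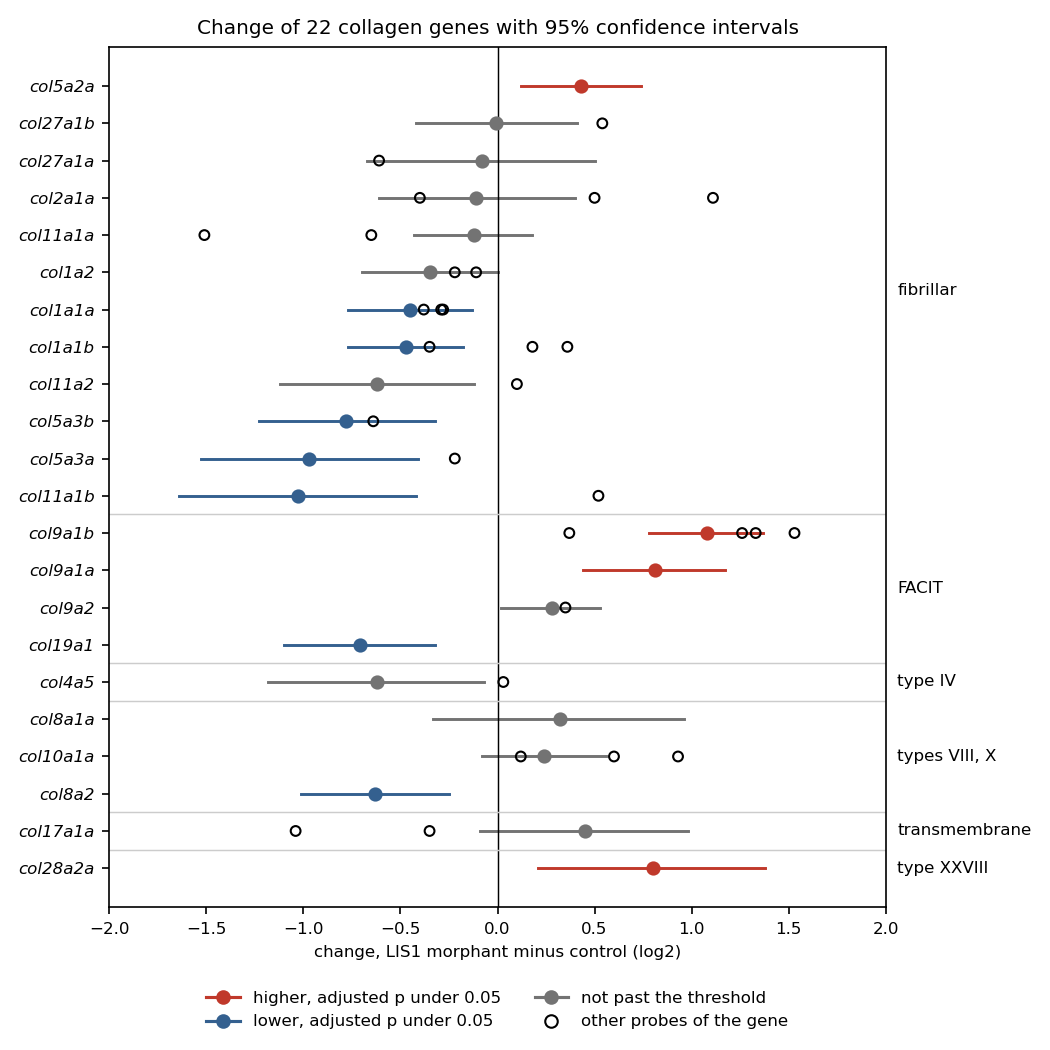
Change of each of the 22 collagen genes, LIS1 morphant minus control on the log2 scale, grouped by collagen class. Filled points are the probe that stands for the gene with the 95% confidence interval of the limma fit, coloured by the call, and open points are the other probes of the gene. Changes run from -1.03 for col11a1b to 1.08 for col9a1b, and 7 genes have probes on both sides of 0.

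Among the FACIT genes, both α1 chain genes of type IX collagen rose in the morphants and col19a1 fell. Type IX collagen coats the type II fibrils of cartilage and other type II-rich tissues and is built from α1, α2 and α3 chains. The array measured col9a1a and col9a1b, paralogues of the α1 chain, and col9a2, the α2 chain. Of the 4 FACIT genes, 2 rose and 1 fell, with a median of 0.54, where 16.4% and 21.9% of all genes did. Groups did not overlap for any of the 4, as for 38% of all genes.

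For col9a1b the morphant pools read 3.50, 3.74, 3.79 and 3.55, against 2.71, 2.42, 2.41 and 2.72 in control pools. Every morphant pool stood above every control pool by a wide margin. The gene averaged 3.64 ± 0.14 in morphants and 2.57 ± 0.18 in controls (SD, n = 4 each), a 2.11-fold rise, or 1.08 ± 0.13 (SE, limma adjusted p = 5e-04). The difference within slides ran from 0.79 to 1.38. It is the collagen gene with most probes, 5 in all, and the other 4 changed by 1.26, 1.53, 1.33 and, without passing, 0.37. The probe that did not pass was the dimmest of the 5.

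For col9a1a, which had a single probe, the morphant pools read 2.68, 2.42, 2.37 and 2.28, against 1.93, 1.60, 1.70 and 1.30 in control pools. The lowest morphant pool was above the highest control pool. The rise was 0.81 ± 0.16 (SE, limma adjusted p = 0.00493), or 1.75-fold, and 0.68 to 0.98 within slides. The calls of col9a1a and col9a1b held in all 19 alternative settings. No other collagen gene that passed kept its call in every setting.

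The α2 chain gene col9a2 read 5.33, 5.16, 5.28 and 5.18 in morphant pools, against 5.13, 4.90, 4.98 and 4.82 in control pools. The groups did not overlap, but they lay close together. The change was 0.28 with a standard error of 0.11, which did not pass (limma adjusted p = 0.0807), and the dimmer probe was at 0.35. After quantile normalization, in the deposited values, under spike-in scaling and without control replicate 1, col9a2 passed as higher.

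The gene col19a1, which encodes the chain of a minor FACIT of basement membrane zones, read -4.50, -4.43, -4.41 and -4.17 in morphants, against -3.91, -3.50, -3.95 and -3.30 in controls. Levels did not overlap, with the highest morphant pool just below the lowest control pool. It fell by 0.71 ± 0.17 (SE, limma adjusted p = 0.012), or 1.63-fold. It did not pass after normexp or in the deposited values, and its change was 0.03 under spike-in scaling.

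**Figure D2:**
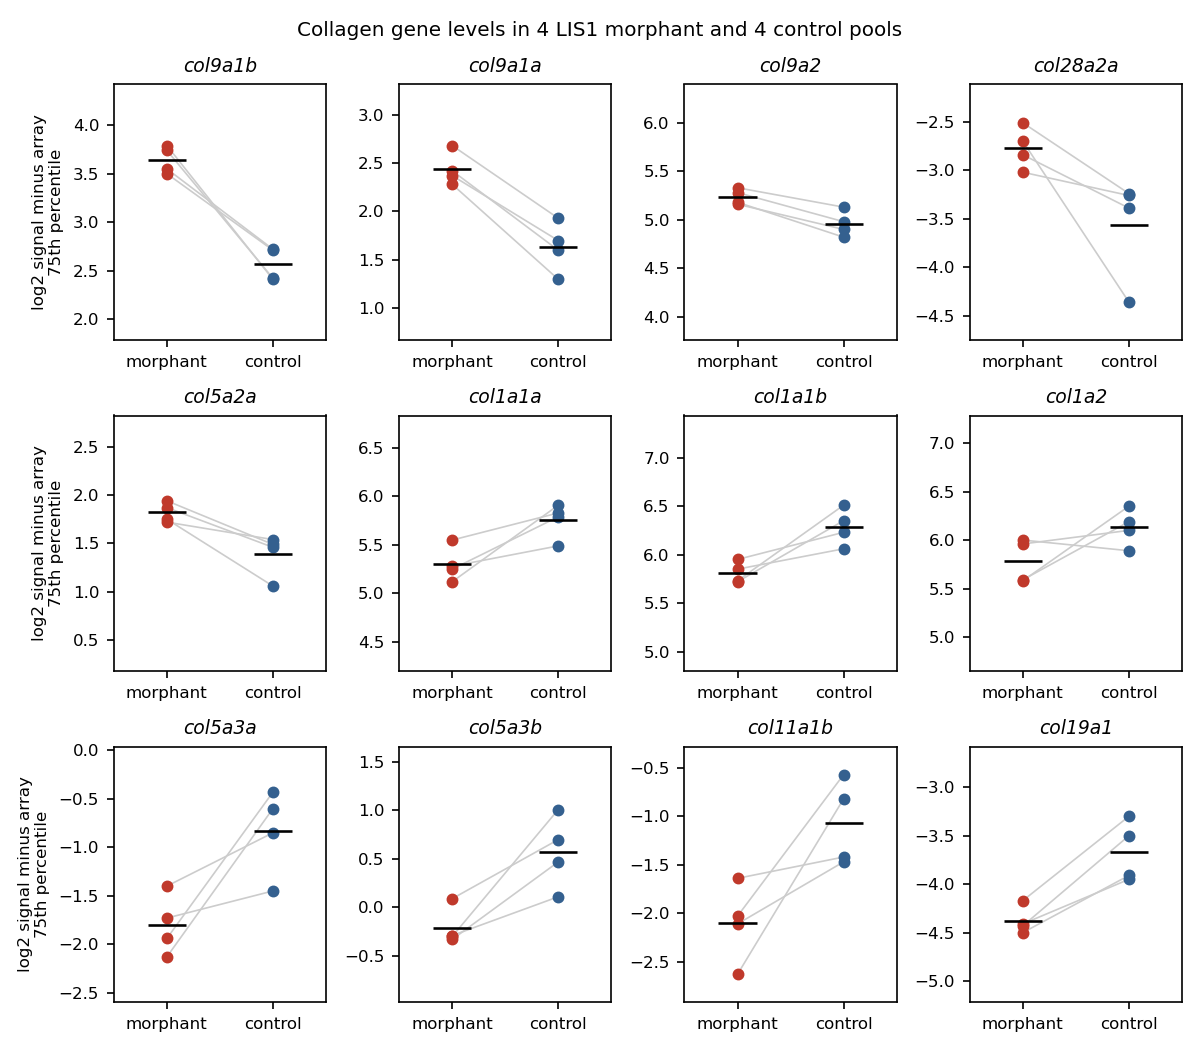
Log2 signal minus the array's 75th percentile for 12 collagen genes in 4 LIS1 morphant pools (left in each panel) and 4 control pools (right). Points are pools, black bars are group means, and grey lines join pools that shared a slide; every panel spans the same range. The 4 morphant pools of col9a1b lie between 3.50 and 3.79, above all control pools, and those of col11a1b lie between -2.63 and -1.64, below all control pools.

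Fibrillar collagen genes were mostly below 0. Of 12, 5 fell, 1 rose and 6 did not pass, with a median of -0.40, beside -0.06 over all genes. The changes of 11 were below 0, as were those of 12703 of all 23400 genes. Among the 11, col11a1a, col2a1a, col27a1a and col27a1b were close to 0, from -0.12 to -0.01. Of all genes 21.9% fell, and 41.7% of the fibrillar genes did. Within the 4 slides the fibrillar median ran from -0.69 to -0.04. Groups did not overlap for 4 of the 12, as for 38% of all genes. With the probes of each gene averaged, 3 of the 12 fell, namely col5a3a, col5a3b and col11a1a, where 5153 of all 23400 genes fell. The calls of col1a1a, col1a1b and col11a1b were lost there, and that of col11a1a was gained. With every probe tested by itself, 8 of 31 fibrillar probes fell, where 21.1% of all probes did. After normexp with 75th percentile scaling only col1a1b fell, where 1294 of all 23400 genes did. Under spike-in scaling 3 fibrillar genes rose and 0 fell, with a median of 0.33. There 12579 and 1069 of all 23400 genes rose and fell.

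Type I collagen, the main collagen of bone and skin, is encoded in zebrafish by col1a1a, col1a1b and col1a2. The morphant pools read 5.55, 5.25, 5.28 and 5.12 for col1a1a, against 5.83, 5.79, 5.49 and 5.91 in control pools. The groups overlapped through morphant replicate 1 and control replicate 3. It fell by 0.45 ± 0.14 (SE, limma adjusted p = 0.0336), or 1.37-fold. The remaining 3 probes, at -0.38, -0.29 and -0.28, did not pass. The call was lost in 13 of the 19 alternative settings, among them scaling to the array median.

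The paralogue col1a1b read 5.95, 5.72, 5.85 and 5.73 in morphants, against 6.23, 6.35, 6.06 and 6.51 in controls. Morphant and control levels did not overlap. The fall was 0.47 ± 0.13, or 1.39-fold (SE, limma adjusted p = 0.0193). Its 4 probes went opposite ways, however, and a probe nearly as bright rose. That probe read 5.79, 5.80, 5.89 and 5.79 in morphants, against 5.34, 5.52, 5.45 and 5.53 in controls, with a change of 0.36 (limma adjusted p = 0.0248 over all probes). The other 2 probes changed by -0.35 and 0.18. The direction of col1a1b is therefore uncertain.

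The α2 chain gene col1a2 read 5.96, 5.58, 6.0 and 5.59 in morphants, against 6.10, 6.35, 5.89 and 6.19 in controls. The change of -0.35, with a standard error of 0.15, did not pass (limma adjusted p = 0.102), and the groups overlapped. Its other probes were at -0.11 and -0.22.

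Type II collagen is the fibril former of cartilage and of the notochord sheath. Its gene col2a1a read 5.80, 5.58, 5.94 and 6.39 in morphants, against 5.73, 6.23, 5.76 and 6.42 in controls. The groups covered nearly the same range. The change was -0.11 with a 95% confidence interval from -0.61 to 0.40 (limma adjusted p = 0.734). Of its other 3 probes, the dimmest rose by 1.11 (limma adjusted p = 0.0255 over all probes), and those at 0.50 and -0.40 did not pass.

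Type V and type XI collagens are minor fibrillar types that nucleate and limit the width of type I and type II fibrils. The type V gene col5a3a read -1.73, -2.13, -1.40 and -1.94 in morphants, against -1.45, -0.60, -0.85 and -0.43 in controls. Control replicate 1 lay within the morphant range. The fall was 0.97 ± 0.25 (SE, limma adjusted p = 0.0148), or 1.96-fold, and a second probe was at -0.22 without passing.

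For col5a3b the morphant pools read 0.09, -0.33, -0.29 and -0.30, against 0.70, 0.47, 0.11 and 1.01 in control pools. Levels did not overlap, though morphant replicate 1 and control replicate 3 were nearly level. It fell by 0.78 ± 0.20 (SE, limma adjusted p = 0.016), and its second probe also fell, by 0.64 (limma adjusted p = 0.0218 over all probes). Both col5a3 genes lost their call after normexp with 75th percentile scaling and under spike-in scaling, and kept it in the other 17 settings.

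The α2 chain gene col5a2a was the fibrillar gene that rose, by 0.43 ± 0.14 (SE, limma adjusted p = 0.0344). Its single probe read 1.75, 1.87, 1.94 and 1.72 in morphants, against 1.06, 1.46, 1.49 and 1.54 in controls. The groups did not overlap, and control replicate 1 lay apart from the other controls. The call was lost after normexp with 75th percentile scaling, without any of morphant replicates 1, 2 or 3, and without any of control replicates 1, 2 or 3.

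The largest fitted fall among the members was that of col11a1b, which encodes an α1 chain of type XI collagen. It read -2.11, -2.63, -1.64 and -2.03 in morphants, against -1.47, -0.82, -1.42 and -0.57 in controls. The groups did not overlap, but their edges were close. The fall was 1.03 ± 0.27 (SE, limma adjusted p = 0.0162), or 2.05-fold, and -1.81 to -0.22 within slides. Its second probe rose by 0.52 (limma adjusted p = 0.0332 over all probes), with -1.91, -1.53, -1.81 and -1.99 in morphants and -2.66, -2.08, -2.37 and -2.22 in controls. These probes thus passed in opposite directions, and the mean of both did not pass.

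The paralogue col11a1a was nearly level on its bright probe, at -0.12 with a 95% confidence interval from -0.43 to 0.18 (limma adjusted p = 0.498). Its 2 dimmer probes fell, by 0.65 (limma adjusted p = 0.0124 over all probes) and by 1.51 (limma adjusted p = 0.0427 over all probes). The type XI α2 gene col11a2 was at -0.62 (limma adjusted p = 0.0542) on its brighter probe and at 0.10 on the other. After quantile normalization with or without normexp, in the deposited values and without control replicate 1, col11a2 passed as lower. The type XXVII genes col27a1a and col27a1b, of cartilage, were at -0.08 and -0.01 (limma adjusted p = 0.82 and 0.981). A second col27a1b probe, at 0.54, lacked a value in control replicate 1, where its spot was an outlier.

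Outside the fibrils and FACITs, 2 of 6 genes passed, where 38.3% of all genes did. The type IV chain gene col4a5, which belongs to basement membranes, read 4.61, 4.09, 5.14 and 4.58 in morphants, against 4.74, 5.38, 5.31 and 5.47 in controls. Morphant replicate 3 lay within the control range. The change was -0.62 ± 0.24 (SE, limma adjusted p = 0.0744), and the second probe was at 0.03. Without morphant replicate 3 or without control replicate 1, col4a5 passed as lower.

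The short-chain gene col8a2 read -3.60, -3.41, -3.88 and -4.04 in morphants, against -2.93, -2.95, -3.21 and -3.30 in controls. The groups did not overlap. It fell by 0.63 ± 0.17 (SE, limma adjusted p = 0.0181). That call was lost after normexp with 75th percentile scaling, under spike-in scaling, and without control replicate 2. Its relative col8a1a was at 0.32 (limma adjusted p = 0.403), with controls from -2.25 to -0.95 on either side of the morphants, which ran from -1.61 to -1.10.

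Type X collagen marks hypertrophic cartilage in mammals, and in zebrafish col10a1a is also made by bone-forming cells. It read 3.16, 2.80, 2.82 and 2.57 in morphants, against 2.67, 2.60, 2.64 and 2.47 in controls. The change of 0.24 did not pass (limma adjusted p = 0.204). All 4 of its probes were above 0, and 2 dimmer ones rose, by 0.60 (limma adjusted p = 0.0321 over all probes) and 0.93 (limma adjusted p = 0.0353 over all probes). With its probes averaged, and under spike-in scaling, col10a1a passed as higher.

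Type XVII collagen is a transmembrane protein that anchors basal skin cells in hemidesmosomes. Its gene col17a1a read 1.51, 1.72, 1.06 and 0.68 in morphants, against 0.46, 0.92, 0.86 and 0.95 in controls, a change of 0.45 that did not pass (limma adjusted p = 0.166). The groups overlapped. Its dimmest probe fell by 1.04 (limma adjusted p = 0.0029 over all probes), with -2.13, -2.76, -2.25 and -2.63 in morphants against -1.33, -1.49, -1.66 and -1.10 in controls. The remaining probe was at -0.35 without passing, so the direction depends on the probe. Without morphant replicate 4, and under spike-in scaling, col17a1a passed as higher. Its change ran from -0.32 to 1.18 over the 19 settings. The type XXVIII gene col28a2a read -2.84, -2.51, -3.02 and -2.70 in morphants, against -3.39, -3.24, -3.26 and -4.36 in controls. The groups did not overlap, and control replicate 4 lay far below the other controls. It rose by 0.80 ± 0.26 (SE, limma adjusted p = 0.0387), and lost the call in 6 of the 19 settings.

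Probes of a gene often parted. Of 16 collagen genes with several probes, 9 had all changes on the same side of 0 and 7 did not. Probes of 2 genes, col1a1b and col11a1b, passed in opposite directions. Over the 52 probes, 12 rose and 11 fell, where 17.4% and 21.1% of all probes did. The files hold no probe sequences, so which part of a transcript each probe reads was not analysed here.

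**Figure D3:**
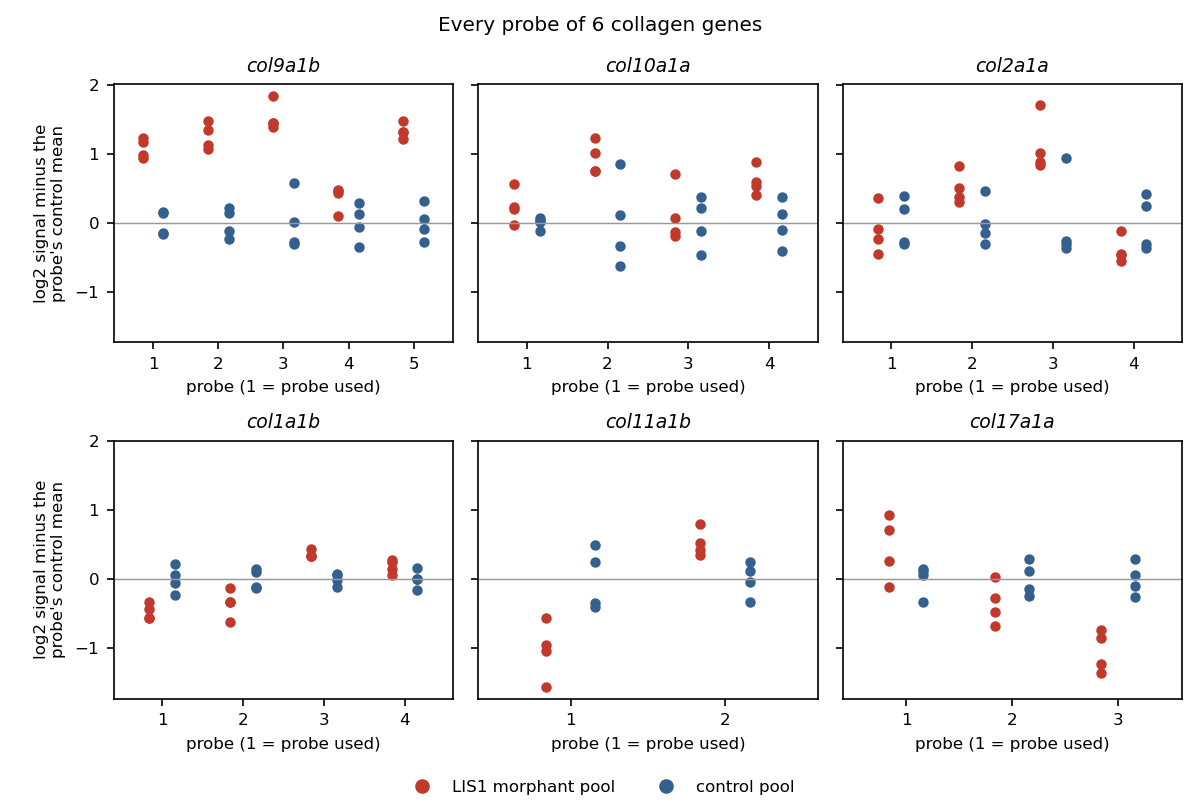
Log2 signal of every probe of 6 collagen genes in each pool, after subtraction of that probe's mean over the 4 controls. LIS1 morphant pools stand left of control pools at each probe, and probe 1 is the one that stands for the gene. For col9a1b the 5 probes lie above 0 in all morphant pools, while probes of col1a1b, col11a1b and col17a1a lie on both sides of 0.

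Paralogues from the fish genome duplication were compared by the difference of their log2 signals on each array, in 5 pairs. The change of col11a1a exceeded that of col11a1b by 0.91 with a standard error of 0.21 (two-sided exact permutation p = 0.0286, or 0.143 adjusted over the 5 pairs). That is the smallest p of an unpaired test, while the test over slide pairs gave 0.125, the smallest it can give, with the same sign in 4 of 4 pairs. The difference was -0.50 when the probes of each gene were averaged. The change of col1a1a minus that of col1a1b was 0.02 with a standard error of 0.07 (exact permutation p = 0.8). For col9a1a minus col9a1b the difference was -0.27 with a standard error of 0.21 (exact permutation p = 0.343). The col5a3 and col27a1 pairs differed by -0.19 and -0.08 with standard errors of 0.32 and 0.31 (exact permutation p = 0.543 and 0.686). No pair passed after adjustment.

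Of the genes that make, process, bind or sense collagen, more rose than fell in the morphants, the receptors excepted. The 5 lists together had 75 tested genes, of which 22 rose, or 29.3%, and 8 fell, with a median of 0.16, where 16.4% and 21.9% of all genes did. The rises include plod2 and the falls loxl3a, each of which passed the background filter through 1 group alone. With the filter set on all 8 arrays, 21 of 72 rose and 8 fell, where 3432 and 4691 of all 21669 genes did. After normexp with 75th percentile scaling, 9 rose and 3 fell, where 1387 and 1294 of all 23400 genes did. By list, rises were 1 for prolyl and lysyl modification, 3 for folding and secretion, 4 for processing and cross-linking and 1 among matrix partners. The falls there were 1 for folding and secretion and 2 among matrix partners. Under spike-in scaling 51 rose and 3 fell, where 12579 and 1069 of all 23400 genes did.

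Of 11 genes for prolyl and lysyl modification, which stabilises and prepares the helix for cross-linking, 5 rose and 2 fell, with a median of 0.25. The prolyl hydroxylase gene p4ha1b read 0.97, 0.70, 0.37 and 0.13 in morphants, against -1.25, -1.59, -1.64 and -1.11 in controls, and rose by 1.94 (limma adjusted p = 0.000298). The groups were well apart. Its paralogue p4ha1a fell by 0.69, and p4hb, the β subunit of the collagen prolyl 4-hydroxylases, fell by 0.79 with its other probes at -0.76, -0.51 and -0.85 (limma adjusted p = 0.0111 and 0.0124). The lysyl hydroxylase gene plod2, which acts on the ends of fibrillar chains, was counted as a rise with a fitted change of 2.66, but was above background in 1 of 4 control pools. It entered the test through the morphant pools alone, so neither its size nor its call is supported here, and a second probe was at 1.1. The lysyl hydroxylase gene plod1a rose by 0.59, with its other probes at -0.52, 0.90 and 1.01. The genes crtap and p3h4 of this list rose by 0.52 and 0.45 (limma adjusted p = 0.0211 and 0.0186).

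Of 16 genes for folding and secretion, 5 rose and 2 fell, with a median of 0.09. Those that rose were pdia4, a disulfide isomerase gene, and 4 prolyl isomerase genes of the endoplasmic reticulum. The largest rise was that of fkbp10b, at 1.1 ± 0.15 (SE, limma adjusted p = 0.000774). It read 0.16, -0.08, -0.21 and 0.31 in morphants, against -0.85, -1.16, -1.12 and -1.09 in controls, with no overlap. The genes fkbp14, fkbp7 and fkbp9 rose by 0.92, 0.58 and 0.51, and pdia4 by 0.85. The vesicle coat genes sar1ab and sec23b fell by 1.09 and 0.52, with other sar1ab probes at -0.14 and 0.10 and another sec23b probe at -1.47. The collagen chaperone genes serpinh1a and serpinh1b were at -0.09 and 0.17 (limma adjusted p = 0.8 and 0.315), and 2 further serpinh1b probes were at 0.61 and 0.43.

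Of 14 genes for procollagen processing and cross-linking, 6 rose and 1 fell, with a median of 0.24. The lysyl oxidase-like gene loxl5b rose by 1.99 ± 0.16 (SE, limma adjusted p = 5.83e-05), and its second probe was at 2.53. Morphant pools read -1.43, -1.19, -1.50 and -1.18, against -3.10, -3.48, -3.58 and -3.09 in control pools, far apart. All 3 procollagen C-proteinase enhancer genes measured rose, pcolceb by 1.20, pcolce2b by 1.02 and pcolcea by 0.74 (limma adjusted p = 0.00115, 0.00202 and 0.0293). The membrane metalloproteinase gene mmp14b rose by 0.62, with its other probe at 0.93. The counted fall was the oxidase gene loxl3a, with a fitted change of -4.14, which was above background in 1 of 4 morphant pools and entered the test through the control pools alone. With the filter set on all 8 arrays the list had 0 falls, and without morphant replicate 3 or control replicate 1 it had 2.

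Of 27 collagen-binding matrix partners, 6 rose and 2 fell, with a median of 0.16. Without control replicate 2 or 3 the rises numbered 2, and without morphant replicate 4 they numbered 3. Without control replicate 1 the falls numbered 4. In the fit blocked by replicate number 4 fell, where 18.9% of all genes rose and 25.4% fell. The proteoglycan gene epyc rose by 0.74, the matrilin genes matn3a and matn3b by 0.70 and 0.56, and the link protein gene hapln1a by 0.52 (limma adjusted p = 0.00523, 0.0143, 0.0338 and 0.0189). The matrilin genes matn1 and matn4 were at 0.20 and -0.49 and did not pass. Other matn1 probes were at 1.33 and 0.96, and another matn4 probe at -0.10. The fibronectin gene fn1b and the biglycan gene bgnb rose by 0.98 and 0.69. The lumican gene lum, whose product spaces type I fibrils in the cornea, read 1.28, 1.31, 1.53 and 1.01 in morphants, against 2.47, 2.63, 2.64 and 2.81 in controls. It fell by 1.35 (limma adjusted p = 0.000247), while its other probe was at -0.09. The fibulin gene fbln1 fell by 2.3, with its other probe at -1.18. Of 7 collagen receptor genes, adgrg6 alone passed and fell by 1.04 (limma adjusted p = 0.00213), with a list median of -0.58. In the blocked fit, and without morphant replicate 3, 1 receptor gene rose and 2 fell.

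**Figure D4:**
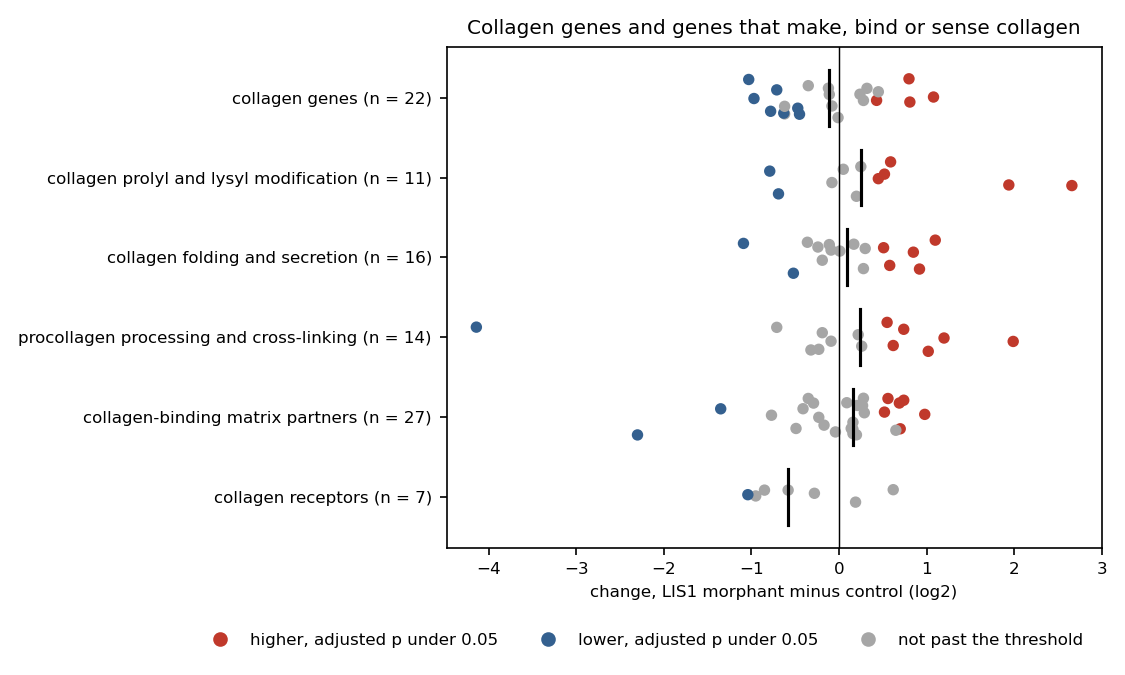
Change of the collagen genes and of 5 lists of genes that make, process, bind or sense collagen, LIS1 morphant minus control on the log2 scale. Each point is a gene, coloured by its call, and the black bar is the median of the list; vertical scatter has no meaning. Medians are 0.25, 0.09, 0.24, 0.16 and -0.58 from the modification list down to the receptors, and -0.11 for the collagen genes.

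Markers of the cell types that make collagen were measured on the same arrays, and in whole larvae fewer cells of a type and less RNA per cell cannot be told apart. Of 8 chondrocyte markers, 4 rose and 1 fell, with a median of 0.36, where 16.4% and 21.9% of all genes did. The same 2 shares are the background for every marker count below from the fit on all pools. With 1 pool left out, 2948 to 3800 of all 23400 genes rose and 3849 to 5098 fell. Their summed linear level relative to the 75th percentile ran from 78.9 to 91.8 in morphant pools and from 68.9 to 77.2 in control pools. Most of each sum came from matn1, the brightest of the 8, which did not pass. Beside epyc, matn3a and hapln1a, the chondrocyte list held ucmab, which rose by 3.63 (other probe 1.0). For ucmab control replicate 1 read -3.00, while the other controls ran from -0.97 to -0.17. The list also held sox9a, the transcription factor gene of chondrocytes, which fell by 1.82 (other probe -0.60). The marker cnmd was at 0.09 without passing (limma adjusted p = 0.615), with its other probe at -2.53. Without control replicate 1, 2 chondrocyte markers fell. After normexp with 75th percentile scaling 2 rose and 1 fell, where 1387 and 1294 of all 23400 genes did.

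Of 7 notochord markers, 3 rose, where 16.4% of all genes did. The list had a median of 0.26 and sums from 23.3 to 30.6 in morphants and from 19.1 to 24.2 in controls. Most of each sum came from ccn2a, the brightest of the 7, which did not pass. The gene cmn, which encodes calymmin of the notochord sheath, rose by 2.26 (other probe 0.39), and tbxta, the notochord transcription factor gene, by 1.20. The other rise was that of loxl5b, described above. The remaining 4 markers went both ways and did not pass. Of these, ccn2a was at 0.26 (other probes 0.34 and 0.50) and shha at 0.14 (other probes 0.41 and 0.34). The gene cav1 was at -0.21 (other probe 0.19). The transcription factor gene noto was at -0.37 (other probe -0.22), and its levels did not overlap.

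Of 7 osteoblast markers, ifitm5 rose by 0.50, while runx2b fell by 0.90 and alpl by 0.66, with a list median of -0.20 and sums from 5.95 to 8.53 in morphants and from 5.05 to 6.48 in controls. The bright bglap, at 0.50, did not pass. The rise of ifitm5 was lost without any of morphant replicates 1, 2 and 3 or control replicates 1 and 4, and 1 osteoblast marker fell without any of morphant replicates 1 and 2 or control replicates 2 and 4. Of 8 fibroblast and tendon markers, 2 rose and 2 fell, with a median of 0.26 and sums from 49.7 to 53.8 in morphants and from 53.5 to 66.7 in controls. The rises were twist1a, by 0.67, and scxa, by 0.43. The falls were lum and fbln1, the same 2 genes counted as falls among the matrix partners. Rises numbered 1 without any of morphant replicates 1 and 2 or control replicates 1, 2 and 3. After normexp with 75th percentile scaling 0 fibroblast and tendon markers rose, and 0 osteoblast markers rose or fell. In that setting 1387 of all 23400 genes rose and 1294 fell. Of 6 basal epidermis markers, itgb4 fell by 1.46, 2 fell without morphant replicate 4, the median was -0.35, and the sums ran from 228 to 306 in morphants and from 274 to 390 in controls. Of 4 endothelial markers, 2 rose, with a median of 0.37 and sums from 4.08 to 5.01 in morphants and from 2.67 to 2.91 in controls. The rises were egfl7, by 0.82 (other probes 0.57 and 0.81), and fli1, by 0.63 (other probes -0.08 and 0.07). The genes kdrl and cdh5, at -0.00 and 0.12, did not pass (limma adjusted p = 0.99 and 0.677). Both were dim, so the sums rest mostly on egfl7 and fli1. The part of these cell types in the collagen changes was not tested.

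Markers of muscle, neurons, liver, erythroid cells and lens were above background in both groups. The 7 muscle markers changed by -0.44 to 0.07 without passing, and 1 fell without control replicate 3. Of 7 neuron markers, gap43 rose by 0.52 and sncb fell by 0.45. Neuron falls numbered 0 in the limma fit without any of morphant replicates 1, 2 and 4 or control replicates 2, 3 and 4. They also numbered 0 after normexp with either scaling, after quantile normalization, and under array-median or spike-in scaling. The same held without a filter on dim probes and in the deposited values. Of 6 liver markers, ambp, fgb and cp rose, with a list median of 0.68, where 16.4% of all genes rose. The liver sums overlapped, from 264 to 350 in morphants and from 205 to 426 in controls. The liver gene fabp10a was at -1.24 without passing (limma adjusted p = 0.0558), with its other probe at -1.23, and its levels did not overlap. Without morphant replicate 1 or 4, 1 liver marker fell. The 7 erythroid markers changed by 0.61 to 1.72 without passing, but morphant replicate 4 lay apart from the other morphants. Without it all 7 passed as higher, where 3439 of all 23400 genes did. The globin gene hbbe2 read 7.12, 6.70, 6.76 and 4.10 in morphants, against 5.19, 4.61, 4.37 and 4.86 in controls. Of 7 lens markers crybb1 and lim2.3 fell, with a median of -0.41. Lens falls numbered 4 without morphant replicate 1, 1 without control replicate 4, and 0 without any of morphant replicates 2 and 4 or control replicates 1, 2 and 3. After normexp with 75th percentile scaling 0 lens markers fell, where 1294 of all 23400 genes did. In the blocked fit, 4 erythroid and 2 osteoblast markers rose, 2 basal epidermis markers fell, 1 notochord and 1 liver marker fell, and the fall of sncb was lost. In that fit 18.9% of all genes rose and 25.4% fell.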

How the data were processed

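RNA from 8 pools was labelled with Cy3, per the labels. The labelling protocol names mouse arrays, while the file headers give the zebrafish design 026437 with the build danRer6. Each array's intensity values come from Feature Extraction (version 10.7.3.1), per the file headers. They give a background-subtracted processed signal and median spot and background signals, without scaling across arrays. Values in the authors' deposited table are log2, and their normalization is not given in the sources used here; column medians were 8.127 to 8.131.

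From 43803 non-control spots per array, outlier spots were dropped, log2 processed signals were reduced by the array's 75th percentile, and spots of a probe were averaged to 43603 probes. The filter asked for a well-above-background flag on every one of the 4 arrays in either group, which 36707 probes met. Accessions without versions matched 25069 probes to 12858 symbols of a RefSeq table of GRCz12tu, used for names only. The brightest probe stood for a gene, which left 23400 genes, 12142 with a symbol. Groups were compared with limma 3.58.1 in R 4.3.3 (lmFit, eBayes), a step also tested on simulated data. The files hold no mean signal, so normexp (offset 50) used the median signals.

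Members, lists and classes were chosen with earlier results of these data known. Values in every pool were given, by rule, for genes past the threshold without overlap and at least 2-fold changed, for the largest change of each class, and for col1a1a, col1a2, col2a1a and col10a1a. The same was done for col1a1b, col5a2a, col5a3a, col5a3b, col9a1a, col9a2 and col19a1, chosen after their values were seen, as were the paralogue pairs. List genes named are up to 5 per list and direction among those past the threshold. Added to these are serpinh1a, serpinh1b, matn1, matn4, cnmd, bglap, fabp10a, kdrl, cdh5, ccn2a, shha, cav1 and noto. The added genes, and the list genes given in every pool (hbbe2 among them), were chosen after their values were seen.

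Arrays of the same replicate number share a slide, so the numbers pair the arrays by slide. Deviations from group means correlated at 0.352, 0.152, 0.262 and 0.226 within these pairs. Correlations between arrays of different replicate numbers are not given here, so these values alone do not show a pairing. The reported fit has no block; the fit with the replicate number as a block, and exact tests over the 4 pairs, were alternatives. Arrays of a group correlated at 0.976 to 0.992, and none were identical. The labels describe replicates as pools, without saying that they are separate clutches, so p-values measure the spread between these pools.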

Additional observations from a re-analysis of the deposited data

Results flagged for a closer look

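In 44 groups of 4 pools, 2 for each collagen gene, the pool at the edge of 3 groups stood apart by more than Dixon's 95% critical value. Chance flags about 1 in 20 groups. Morphant replicate 1 of col5a3b read 0.09, while the other morphants ran from -0.33 to -0.29. Control replicate 1 of col5a2a read 1.06, while the other controls ran from 1.46 to 1.54, and without it the rise of col5a2a no longer passed. Control replicate 4 of col28a2a read -4.36, while the other controls ran from -3.39 to -3.24.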

How the results depend on the processing

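The 4 rises and 7 falls of collagen genes were recomputed in 19 settings, and col9a1a and col9a1b passed in all of them. After normexp with 75th percentile scaling, 2 collagen genes rose and 1 fell, 0 fibrillar genes rose and 1 fell, 0 FACIT genes fell, 9 pathway genes rose and 3 fell, and of all genes 1387 rose and 1294 fell. With spike-in scaling, 10 collagen genes rose and 0 fell (median 0.62), 3 fibrillar genes rose and 0 fell (median 0.33), 0 FACIT genes fell (median 1.28), 51 pathway genes rose and 3 fell, and of all genes 12579 rose and 1069 fell. There 11 changes turned sign: col1a1a was at 0.28, col1a1b at 0.26, col8a2 at 0.11, col11a1a at 0.61, col19a1 at 0.03 and col27a1b at 0.73, and, passing in neither fit, col1a2 at 0.38, col2a1a at 0.63, col4a5 at 0.12, col11a2 at 0.12 and col27a1a at 0.65. With every probe tested by itself, 12 of 52 collagen probes rose and 11 fell. Of 31 fibrillar probes 4 rose and 8 fell, and of 9 FACIT probes 5 rose (median 0.81). In that setting 44 pathway probes rose and 15 fell, and of all probes 6390 rose and 7738 fell. Fibrillar falls numbered 3 with probes averaged, where 5153 of all 23400 genes fell. FACIT falls numbered 0 after normexp with quantile normalization and in the deposited values, where 4441 and 4598 of all 23400 genes fell. The FACIT median was 0.62 under array-median scaling. Leaving out 1 pool gave 2 to 4 collagen rises, 4 to 8 falls and medians of -0.25 to -0.05; 0 to 1 fibrillar rises, 3 to 5 falls and medians of -0.49 to -0.34; 2 to 3 FACIT rises, 1 fall and medians of 0.46 to 0.62; 16 to 22 pathway rises and 8 to 11 falls; and over all genes 2948 to 3800 rises and 3849 to 5098 falls. Collagen falls were 4 without control replicate 2, and rises were 2 without morphant replicate 1 or 2. In the fit blocked by replicate number, 4 collagen genes rose and 7 fell, and no collagen call changed. The difference between the col11a1a and col11a1b changes was -0.50 with probes averaged; the paralogue tests and the tests over slide pairs were added after the data were seen. The causes were not tested. With 4 arrays a group, their number limits the precision.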
